A study of Homo sapiens with 12 samples.

Results

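m6A, the methylation of adenosine at its N6 position, is laid down on RNA by a METTL3 and METTL14 complex, mostly at adenosines in a GGAC context, and is removed by the demethylases ALKBH5 and FTO. Long noncoding RNAs carry the mark as messenger RNAs do. In MALAT1 it is known to change the fold of a hairpin and so the binding of a nuclear protein, in XIST it takes part in gene silencing, and on primary microRNA transcripts it is a signal for processing. The peaks described here are those that the authors' annotation placed in exons of noncoding RNAs, in A375 cells, a human melanoma line. They numbered 8815 of the 46039 peaks called in shALKBH5 cells and 8000 of the 44304 peaks called in shCtrl cells. They also made up 897 of the 6513 rows in the authors' table of peaks that differ between the groups.

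The cells were infected with a lentivirus carrying a hairpin against ALKBH5 (shALKBH5, labelled as an ALKBH5 knockdown) or a control hairpin (shCtrl, labelled as wild type), so both groups carry an integrated vector. Each group had 3 input and 3 m6A immunoprecipitation (IP) libraries of poly(A) RNA. Which of the ALKBH5 hairpins the sequenced cells carried is not named, and although the study's methods speak in general of independent repeats, the labels do not tie these libraries to separate cultures, so their spread may be technical. The peaks come as 1 list per group, so none of their values has a replicate error.

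ALKBH5 (chromosome 17, 18183078 to 18209954), the targeted gene, stood at 19.3, 17.8 and 17.6 FPKM (fragments scaled for the length of the transcript and the size of the library) in the shCtrl libraries. The shALKBH5 libraries gave 3.39, 3.92 and 3.12 FPKM. The groups were far apart, and the knockdown level was 19.1% of the control level (log2 difference -2.36 ± 0.09 SE, adjusted p = 1.28e-06 by limma over 12985 genes; exact permutation p = 0.1, the smallest that 3 libraries against 3 allow). Of the melanocytic markers, 6 of 7 had a row. SOX10 stood at 179 to 192 FPKM in all 6 libraries and S100B at 31.5 to 85.1 FPKM, while MITF lay between 0.645 and 1.57 FPKM, PMEL reached 0.69 FPKM at most, and TYR and DCT were near 0. S100B and MITF were higher in shALKBH5 and KRT14 lower (adjusted p = 1.01e-06, 0.0475 and 0.00372 by limma). The MITF groups overlapped, and the PMEL groups did not, at 0.166 to 0.285 and 0.478 to 0.69 FPKM. Their part in the results was not tested. Keratinocyte marker KRT14 reached 1.07 FPKM at most, and the other markers of keratinocytes and the immune markers had no row in the table.

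The first bases of a few of these RNAs are shown because the peaks of both lists cover them, so the sequence under a called region can be read directly. They are the first 50 transcribed bases in RefSeq GRCh38.p14, with GGAC in capitals. MALAT1 (chr11:65497738-65497787, + strand), CD27-AS1 (chr12:6451468-6451517, - strand), HOXD-AS2 (chr2:176137049-176137098, - strand) and RAB30-DT (chr11:83072066-83072115, + strand) hold GGACT there. SNHG21 (chr15:82750564-82750613, + strand) holds GGAC with another base after it, and NORAD (chr20:36050911-36050960, - strand) holds neither.
MALAT1: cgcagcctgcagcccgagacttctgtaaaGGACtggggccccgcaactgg
CD27-AS1: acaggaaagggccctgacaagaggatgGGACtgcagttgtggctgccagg
HOXD-AS2: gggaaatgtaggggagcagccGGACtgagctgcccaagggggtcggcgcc
RAB30-DT: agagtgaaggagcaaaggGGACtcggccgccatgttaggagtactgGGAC
SNHG21: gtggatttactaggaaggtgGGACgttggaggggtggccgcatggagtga
NORAD: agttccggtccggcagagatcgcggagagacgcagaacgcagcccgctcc

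The motif was searched on the transcript strand only. Of 424 genes whose first 50 bases lay inside a noncoding RNA exon peak of either list, 19.8% held GGAC and 4.72% GGACT. Over all 27305 genes of the RefSeq table the shares were 18.8% and 4.87%, so the covered starts held the motif about as often as starts in general. Of the 5780 genes with such a peak, only 990 had a sequence in that table, so most could not be searched. Among the 107 genes covered in both lists by peaks of 2-fold enrichment or more whose false discovery rate (FDR) did not exceed 0.01, the shares were 22.4% and 7.48%. The peak bodies beyond these 50 bases were not searched.

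Peaks also covered microRNA genes. In all, 49 hairpins of the RefSeq table lay inside a noncoding RNA exon peak on their own strand, 30 of them in both lists. Peaks are listed by their genomic span, introns included, so a hairpin inside a span need not lie in the enriched RNA. The mature microRNAs shown are a selection: those that share a seed under 1 peak, miR-367-3p as a neighbour of the miR-302 members with a seed of its own, the one under the highest peak present in both lists, and those of MIR675 and MIR210, which lie in rows of the authors' differential table. Capitals mark the seed, bases 2 to 8.
miR-302a-3p: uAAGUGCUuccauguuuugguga
miR-302b-3p: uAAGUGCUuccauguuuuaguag
miR-302c-3p: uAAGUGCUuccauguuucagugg
miR-302d-3p: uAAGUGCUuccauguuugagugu
miR-367-3p: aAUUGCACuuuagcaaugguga
miR-497-5p: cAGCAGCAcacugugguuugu
miR-195-5p: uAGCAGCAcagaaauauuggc
miR-1915-3p: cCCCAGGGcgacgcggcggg
miR-210-3p: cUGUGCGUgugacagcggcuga
miR-675-5p: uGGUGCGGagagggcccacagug

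The miR-302 members share 1 seed and lie with miR-367, a cluster known from pluripotent cells, under 1 peak on chromosome 4 with a fold enrichment (IP over input) of 3.56 in the shALKBH5 list and 5.11 in the shCtrl list. miR-497 and miR-195 also share a seed and lay under 1 peak on chromosome 17, with folds of 1.77 and 1.92. The peak over MIR1915 on chromosome 10 was higher, at 42.9 and 36.4, though that gene was listed at 0 FPKM in all shCtrl libraries. MIR210, the hypoxia-induced microRNA on chromosome 11, had a fold of 2.26 in the shALKBH5 list and 10.6 in the shCtrl list, and the evidence for the shALKBH5 peak was weak (log10 FDR -1.4, against -35.8 in shCtrl): it passed an FDR of 0.05 but not 0.01. Of the 49 hairpins, 24.5% held GGAC and 12.2% GGACU, against 27.3% and 8.85% of 1560 hairpins in the table.

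H19, the imprinted RNA that carries MIR675 in its first exon, gave 1 of the largest folds, with a peak over most of the gene. In the shCtrl list it ran from 1996605 to 2001470 on chromosome 11 (- strand), was listed under MIR675, and had a fold of 95.8. In the shALKBH5 list it ran from 1996874 to 2001470 with a fold of 80.8, and so stopped short of the MIR675 hairpin (chr11:1996759-1996831). The shCtrl list also held a 61 bp peak at the 3′ end of H19, with a fold of 2.9. The hairpin holds GGACU, of which GGAC is in capitals.
MIR675 hairpin: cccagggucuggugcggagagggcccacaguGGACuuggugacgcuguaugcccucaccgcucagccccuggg
H19 RNA itself was lower after the knockdown. It stood at 3.33, 2.82 and 2.52 FPKM in the shCtrl libraries and at 0.991, 1.11 and 0.878 FPKM in the shALKBH5 libraries, with no overlap (log2 difference -1.45 ± 0.13 SE, adjusted p = 6.8e-05 by limma).

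NEAT1, the scaffold of paraspeckles, gave the largest fold of all these peaks. Its 5′ peak (65422774 to 65425376 on chromosome 11) started with the gene and had a fold of 243 in the shALKBH5 list and 240 in the shCtrl list. Each list repeats it near its end with nearly the same bounds and folds of 258 and 243. A peak just downstream had folds of 12.1 and 13.1. Enrichment at NEAT1 was highest at its 5′ end in both lists, and beyond these peaks the gene held only short peaks, with folds of up to 5.39. NEAT1 RNA rose from 3.37, 3.9 and 3.43 FPKM in shCtrl to 5.94, 5.23 and 5.4 FPKM in shALKBH5 libraries (1.53-fold, adjusted p = 0.000459 by limma).

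MALAT1, a nuclear speckle RNA implicated in metastasis, had 5 peaks in each list. The longest, 65498496 to 65501279 on chromosome 11 in the shALKBH5 list, had a fold of 11.7 there and 12.3 in the shCtrl list. Farther along, a peak at 65502446 to 65503075 had a fold of 30.5 in shALKBH5, and the 570 bp peak inside it had 17.1 in shCtrl. The level of MALAT1 RNA, from 4.92 to 7.52 FPKM over the 6 libraries, overlapped between groups (adjusted p = 0.794). NORAD, a cytoplasmic RNA that binds PUMILIO proteins, had folds of 8.72 and 9.18 in a peak of 1403 bp near its 5′ end, 2 other peaks in the shALKBH5 list and 1 in the shCtrl list. NORAD RNA rose from 20.7, 27.9 and 24.3 FPKM to 41, 36.9 and 37.7 FPKM (1.59-fold, adjusted p = 0.000976 by limma).

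**Figure D1:**
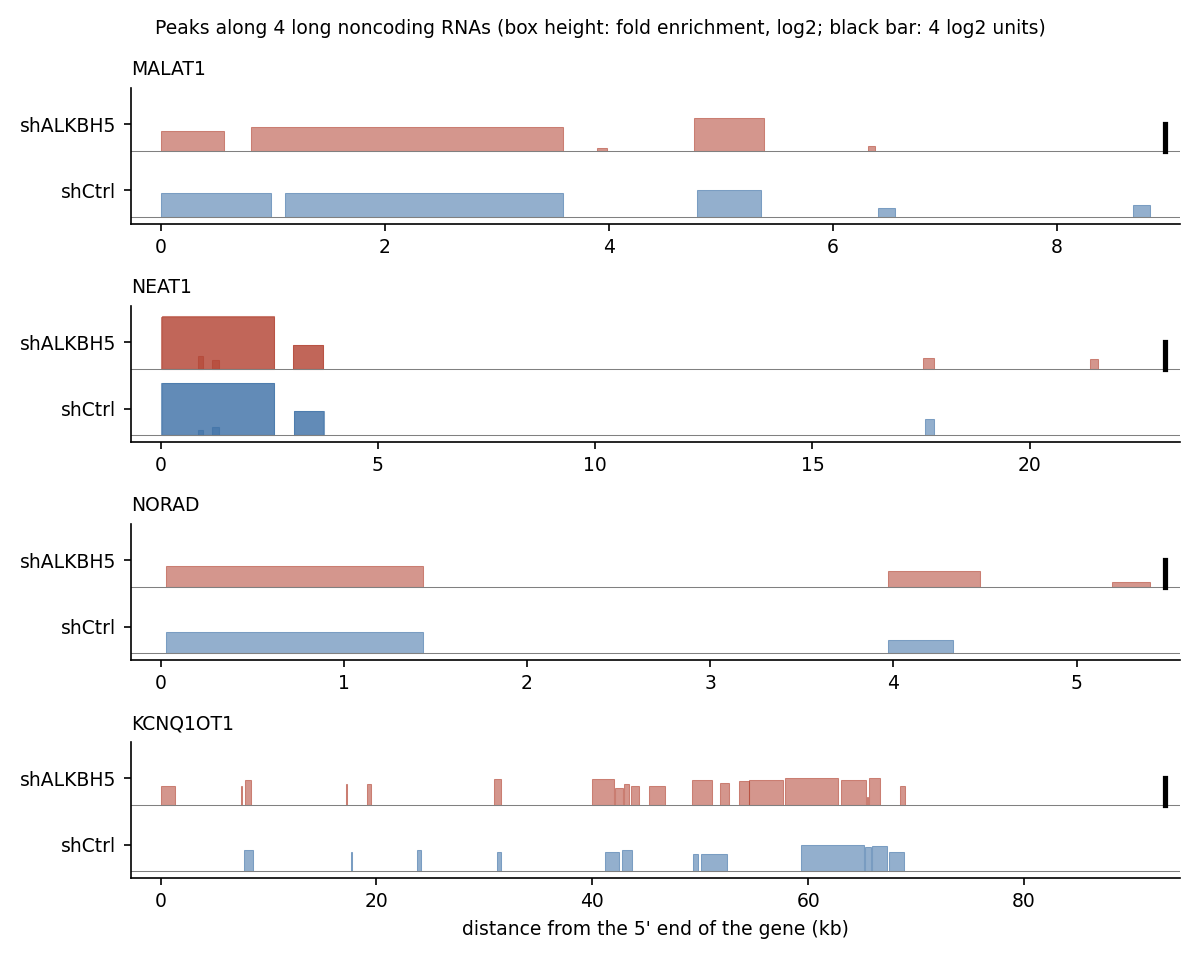
Peaks along MALAT1, NEAT1, NORAD and KCNQ1OT1 in the 2 lists, against the distance in kb from the 5′ end of the gene; the height of a box is the log2 fold enrichment and the black bar at the right is 4 log2 units. NEAT1 peaks of both lists crowd at the 5′ end, with the tallest boxes at folds of 258 in shALKBH5 and 243 in shCtrl, while KCNQ1OT1 holds many boxes of like height, 20 in shALKBH5 and 12 in shCtrl.

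The genes with the most peaks over both lists were FTX with 38, HCG18 with 34, KCNQ1OT1 with 32, LINC00662 with 31, MIR4435-2HG with 28, SCAND2P with 27, TTC28-AS1 with 26, and GARS1-DT, LINC00632, LINC00963 and ZNF213-AS1 with 25 each. FTX and KCNQ1OT1 are regulatory RNAs of the X-inactivation centre and of an imprinted cluster. Several of these genes were long and weakly expressed: FTX spans 353 kb at a mean of 0.127 FPKM and KCNQ1OT1 91.7 kb at 0.0541 FPKM. At KCNQ1OT1, which had 20 peaks in shALKBH5 and 12 in shCtrl, folds lay between 2.31 and 17.1, and no peak had a log10 FDR below -3.27. LINC00963 stood highest of the 11, at a mean of 4.56 FPKM, followed by HCG18 at 1.06 and SCAND2P at 0.936 FPKM. LINC00963 also had the most rows among the authors' differential peaks, 6.

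Across the lists, the noncoding RNA exon share was 19.1% in shALKBH5 (95% Wilson interval 18.8 to 19.5) and 18.1% in shCtrl (17.7 to 18.4), intervals that cover counting error only. By name, 41.9% of the shALKBH5 peaks lay in genes known only by a clone name, 20.7% in pseudogenes, 15.7% in antisense genes and 11% in LINC genes, and the shares in shCtrl were 41.5%, 21.6%, 15.4% and 10.8%. The peaks fell in 5780 genes, of which 3794 had a peak in both lists. Of the 4995 genes with a peak in shALKBH5 and the 4579 in shCtrl, 62.8% and 63.7% had 1 peak in that list. No gene with such a peak also had a peak in a 3′UTR, 5′UTR or coding exon of its list. Pseudogenes can share reads with their parent genes, so their peaks and levels are uncertain.

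Along the gene, short peaks lay mainly at the ends. Genes of 5000 bp or more were cut into equal bins of 20% of their genomic length, introns included. Peaks of up to 1000 bp were placed by their centre. Of 2942 such shALKBH5 peaks, 41.5% lay in the 3′ bin and 28.7% in the 5′ bin, while each bin between held 9.48% to 10.8%. In the shCtrl list the outer bins held 41.4% and 29.6% of 2658 peaks. First and last exons always lie at the ends of a gene, and the exon share of each bin was not derived. These shares therefore cannot show a preference of the mark for the ends.

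The peaks were strong in fold and weak in evidence. Their median fold was 7.35 in shALKBH5 (quartiles 4.09 and 11) and 7.66 in shCtrl (4.15 and 11.3), against 4.95 and 5.11 for peaks in 3′UTRs. Yet 21.4% and 21.2% of them had an FDR above 0.05, against 11.1% and 9.99% of the 3′UTR peaks. Their genes were expressed far lower, at a median of 0.197 and 0.236 FPKM over the peaks, against 2.69 and 2.66 FPKM for 3′UTR peaks. The median fold of the shALKBH5 peaks fell with the level of the gene, from 8.57 under 0.1 FPKM to 6.8 from 0.1 to 1, 5.17 from 1 to 10 and 3.59 at 10 FPKM and over, and the shCtrl list had the same order.

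**Figure D2:**
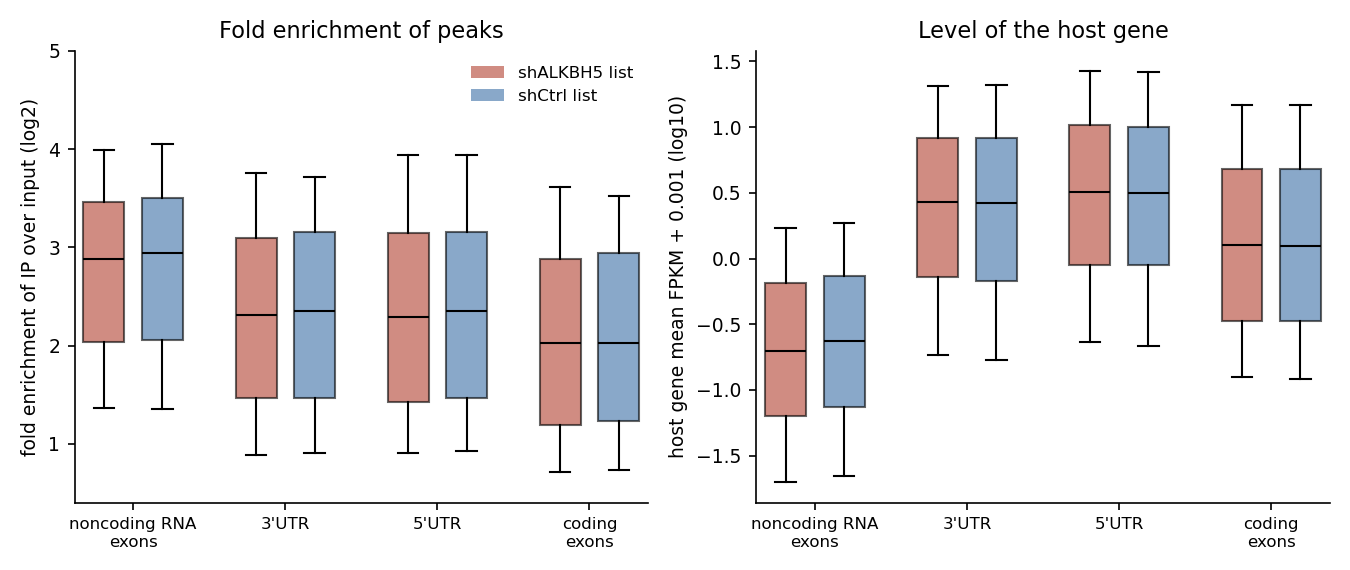
Log2 fold enrichment of peaks (left) and log10 of the mean FPKM plus 0.001 of their genes (right), by annotated region and list; boxes span the quartiles with the median as a line, and whiskers reach the 10th and 90th percentiles. Noncoding RNA exon peaks had the highest median fold, 7.35 and 7.66, and the lowest median level, 0.197 and 0.236 FPKM.

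The low folds took few values. Of the shALKBH5 peaks with a fold under 10, 41.5% lay within 0.006 of a whole multiple of 1.2245, as did 39.1% of the shCtrl peaks for multiples of 1.2765. For 3′UTR peaks these shares were 18.6% and 15.8%. In genes under 0.1 FPKM they rose to 64.5% and 60.6%. Where the peaks of both lists were on such a step, their folds had a Spearman correlation of 0.08 over 389 pairs, against 0.56 over all 5208 pairs, as a description over peaks that share libraries. The folds of 7.35 and 7.66, the medians, are themselves such steps.

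Many of these peaks had a peak on the other strand. At least 50% of the span was covered by an opposite-strand peak in 18.7% of shALKBH5 and 19.7% of shCtrl peaks, against 8.74% and 8.5% in 3′UTRs. Among the 50 peaks with the lowest p in each list, 30 and 31 were so covered, 60% and 62%. Of the 1648 covered peaks in shALKBH5, 1235 faced a coding gene, 642 of them its 3′UTR. Antisense genes (22.8% in shALKBH5) and clone-named genes (24.2%) were covered more often than LINC genes (7.21%).

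In part of these pairs the folds on the strands were the same or nearly so. AFAP1-AS1, which is antisense to the actin-filament protein gene AFAP1, had a fold of 7.34 in shALKBH5 and 7.66 in shCtrl, and the facing AFAP1 peak had 7.34 and 7.66. DDIT4-AS1, across from the stress-response gene DDIT4, had 6.48 and 6.33, and the DDIT4 peak 6.45 and 6.49. AC009133, across from the transcription factor gene MAZ, had 8.55 and 9.68, and the MAZ peak 8.55 and 9.67. In shALKBH5, 149 of the covered peaks had a fold equal, to the last deposited digit, to that of their partner and 29.6% lay within 10% of it. Near-equal folds were no less common at 3′UTR peaks covered in this way, at 36.9%. At DDIT4-AS1 the RNA level was 0.00437 FPKM, against 51.6 FPKM for DDIT4, and the coding gene was the higher of the pair in 84.4% of 914 shALKBH5 and 81.5% of 877 shCtrl pairs. The libraries were made with a strand-marking (dUTP) protocol, but whether peaks were called by strand is not given in the sources used here, and without it reads of the strands cannot be told apart.

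**Figure D3:**
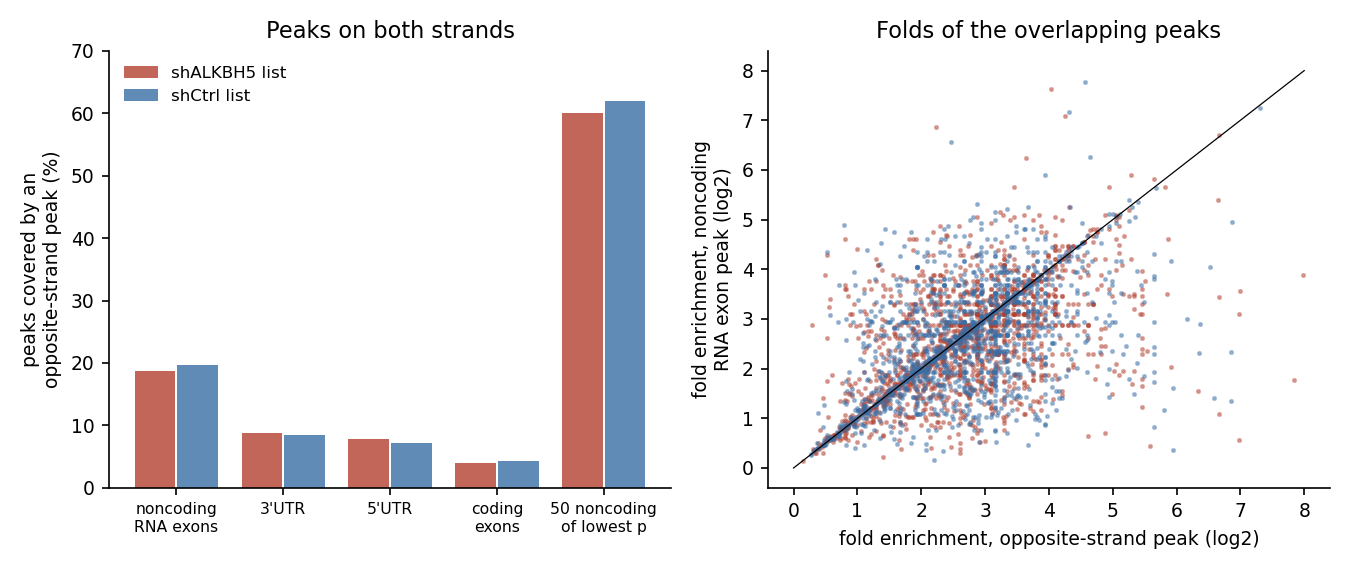
Left, the percent of peaks in each region with at least 50% of their span covered by an opposite-strand peak of the same list, and the same among the 50 noncoding RNA exon peaks of lowest p; right, log2 fold enrichment of each covered noncoding RNA exon peak against that of the facing peak, with the line of equality. The 50 peaks of lowest p stand at 60% and 62%, and many points of both lists sit on the line.

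Between the groups, 71.8% of the shALKBH5 peaks (interval 70.8 to 72.7) shared 1 bp or more with a same-strand peak in shCtrl, and 79.2% of the shCtrl peaks (78.3 to 80.1) overlapped a shALKBH5 peak. For 3′UTR peaks the shares were 81.1% and 83.8%. The overlap followed the evidence: it was 85.9% and 90.3% for peaks with an FDR of at most 0.01, and 45.9% and 58.3% for the rest. A reciprocal overlap of 50% left 41.9% and 46.1%, so many shared peaks differed in extent.

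The fold enrichment of overlapping peaks was spread about equality. A fold is relative to the input and the other RNA of its own list, so it cannot show whether total m6A changed. The study itself reports higher total m6A in shALKBH5 cells by mass spectrometry. Over the 3538 overlapping pairs with an FDR of at most 0.01 in both lists, the median log2 ratio of shALKBH5 over shCtrl was -0.06 (quartiles -0.56 and 0.42). Of these pairs 10.1% were at least 2-fold higher in shALKBH5 and 13.4% at least 2-fold lower, beside 7.46% and 7.57% of the 24612 pairs of all regions. In genes of at least 1 FPKM, 58 of 823 pairs (7.05%) were higher and 69 (8.38%) lower, beside 4.98% and 5.04% of 17015 pairs of all regions. Over the 389 noncoding RNA exon pairs with both folds on a step, the median log2 ratio was -0.06 as well. The ratios have no replicate check, so these counts describe the lists only.

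The largest increases in genes of at least 1 FPKM were at AC009120 (31.8 in shALKBH5 and 3.83 in shCtrl), HMGB1P10 (28.5 and 3.51), FRG1JP (13.5 and 2.26), AC068473 (29.4 and 5.11), WAC-AS1 (18.4 and 3.54) and AC013468 (15.9 and 3.72). The first 3 are pseudogenes. The shALKBH5 peak of CCDC144NL-AS1, among the decreases below, lay wholly under a peak of CCDC144NL. That of WAC-AS1, on chromosome 10 at 28532467 to 28533066, had 95.7% of its span under a peak of WAC on the other strand. The largest decreases were at CR392039 (2.86 in shALKBH5 and 38.3 in shCtrl), CCDC144NL-AS1 (2.01 and 15.3), LSP1P5 (8.57 and 58.7), LINC00265 (2.62 and 15.3), LINC02765 (2.45 and 12.8) and AC012306 (8.13 and 40.9, on chromosome 2 at 127886556 to 127887185).

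The RNA levels of the same genes are given beside their ratios, with the limit that a gene could reach a mean of 1 FPKM through 1 group alone. CR392039, LINC00265, AC068473 and AC009120 did so through shALKBH5, and FRG1JP through shCtrl. CR392039 rose 4.74-fold (adjusted p = 0.000446 by limma), LINC00265 2.33-fold (0.000112) and LINC02765 2.35-fold (6.48e-05). LSP1P5 rose 1.28-fold (0.00179), AC012306 1.56-fold (0.0313), and CCDC144NL-AS1 fell by 0.41 on the log2 scale (0.00312). Of the 6 genes with the largest increases of enrichment, AC068473 rose 1.88-fold (0.0135) and the other 5 did not pass the test. Over 1335 pairs in tested genes, 11.4% were at least 2-fold lower where the gene rose and 5.11% where it fell, while 5.77% and 12.4% were at least 2-fold higher in the same order. Over all these pairs 9.96% were lower and 7.34% higher, and in genes that did not pass the test 9.39% and 8.05%. Input level is the denominator of the fold, so these quantities are not independent.

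**Figure D4:**
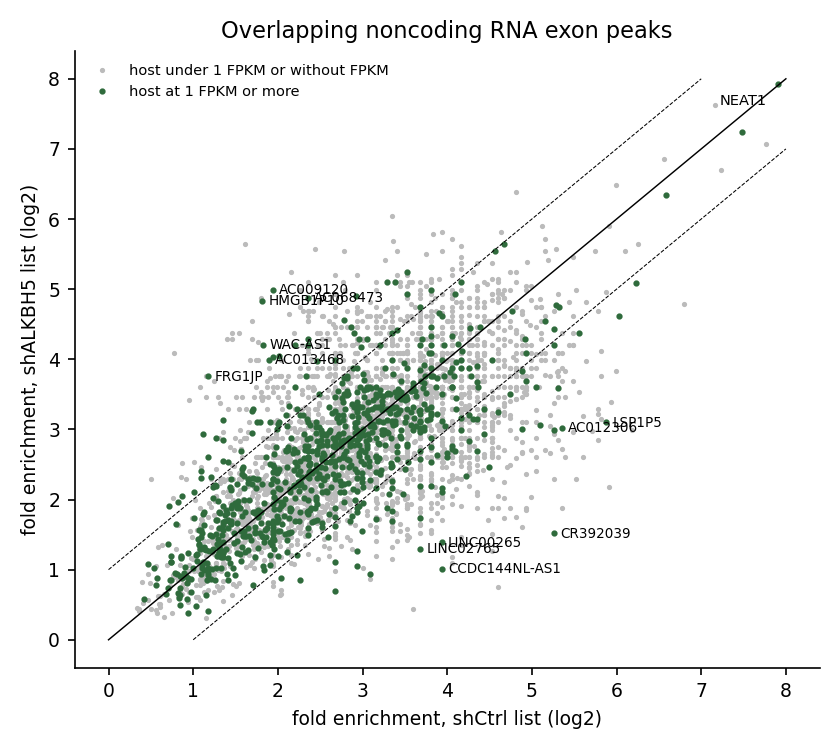
Log2 fold enrichment of overlapping noncoding RNA exon peaks with an FDR of at most 0.01 in both lists, shALKBH5 against shCtrl, in genes of at least 1 FPKM (green) and in other genes (grey); the solid line is equality and the dashed lines are 2-fold. Points spread about the line on both sides, with 58 of 823 green points at or above the upper dashed line and 69 at or below the lower, and the 6 largest changes on each side carry their gene names.

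Apart from NEAT1 and H19, the largest folds that passed an FDR of 0.01 in both lists were at AC019069 (152 in shALKBH5 and 179 in shCtrl), AL133410 (198 and 143), AC026954 (135 and 217), AC074212 (104 and 151), AC005041 (116 and 94.5), BX005266 (89.4 and 63.8), AC137932 (60 in both) and AP000892 (50.2 and 76.6). These carry clone names, and of the 6 with an FPKM value only AC019069 reached 1 FPKM, at a mean of 4.51. In the shALKBH5 list, at least 98.9% of the span at AL133410, AC005041 and AP000892 lay under an opposite-strand peak, of RGP1, LBX2 and CEP164 in this order. AC074212 had 83.6% of its span under SIX5 and AC026954 68.3% under KCTD11, so 5 of the 8 were covered for at least 50% in that list. AC137932 was not covered there, but in the shCtrl list a peak of it was covered for 100%.

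In the authors' table of differential peaks, noncoding RNA exons held 13.8% of the rows (13 to 14.6), in 786 genes. Set against the shCtrl list, this came to 11.2 rows for every 100 peaks, fewer than the 17.7 for 3′UTRs. Over the peaks of 2-fold or more with an FDR up to 0.01, it was 17.8 and 24.3. LINC00963 with 6 rows and LINC00707 with 5 led the list, and MALAT1 had 2 rows and NEAT1 and NORAD 1 each. MIR130A, MIR210, MIR675 and MIR4999 lay inside such rows.

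Of the 4796 genes with a noncoding RNA exon peak and an FPKM value, 1174 reached the mean of 0.5 FPKM needed for testing, which a gene can also reach through 1 group alone. Of these, 526 (44.8%) were higher in shALKBH5 and 120 (10.2%) lower at an adjusted p under 0.05. Over all 12985 genes tested, 34.7% were higher and 26.2% lower, 61% in all. Rescaling the libraries by their median ratio turned this balance to 29.2% higher and 30% lower, and gave 41.1% and 12.1% for the genes with such peaks. The median log2 difference was 0.37 for the genes with such peaks and 0.09 over all genes. With no filter on level, 15.8% of 4796 genes were higher, beside 15.6% of all 29696 genes, and 3.57% were lower, beside 12.2%. The share of higher genes thus stood above that of all genes with the filter and level with it without, while the share of lower genes stood below in both. In bulk samples, more RNA per cell and more cells that express a gene cannot be told apart.

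The split differed among kinds of noncoding gene. Of 26 divergent (-DT) genes tested, 17 were higher and 0 lower, of 158 antisense genes 84 and 14, of 97 LINC genes 54 and 9, and of 377 clone-named genes 197 and 28. Of 404 pseudogenes 128 (31.7%) were higher and 53 (13.1%) lower, and of 96 genes with other names 34 (35.4%) and 16 (16.7%). With snoRNA host genes, but without other names and microRNAs, 492 of 1077 genes with a peak (45.7%) were higher and 104 (9.66%) lower. In genes of these same name classes without a peak, 196 of 735 (26.7%) were higher and 103 (14%) lower. At matched levels, genes of any name with a noncoding RNA exon peak were set beside genes with a peak in a coding gene. From 1 to 3 FPKM, 49.7% of the former were higher and 10.1% lower, against 27.6% and 28.5% of the latter. From 0.5 to 1 FPKM the shares were 38.7% and 6.15%, against 18.3% and 24%. At 3 FPKM or more the distance was smaller, with 47.1% and 17.3% against 40.4% and 30%. For genes of the same name classes without a peak, the higher shares from the lowest to the highest of these levels were 17.2%, 24.5% and 38.5%. Their lower shares were 7.49%, 16.2% and 19%, nearer to those of the genes with a peak.

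Host genes of small nucleolar RNAs, which carry snoRNAs in their introns, were mostly higher. Of the 36 on the list, 17 had a peak and 15 could be tested; 12 were higher, 0 lower, and 3 did not pass the test, beside 34.7% higher and 26.2% lower over all genes. With no filter on level 11 were higher and 1 lower of 17. The lower one was SNHG14, at 0.562, 0.664 and 0.612 FPKM in shCtrl and 0.327, 0.306 and 0.308 FPKM in shALKBH5 libraries (log2 difference -0.78, adjusted p = 0.00985 by limma), whose mean missed the filter. GAS5, a growth-arrest transcript, rose from 29.2, 28.4 and 30.6 FPKM to 50.1, 51.2 and 51.1 FPKM (1.73-fold, adjusted p = 5.15e-06 by limma). SNHG29, the highest of them, rose from 82.6, 75.1 and 82.7 FPKM to 117, 123 and 119 FPKM (1.49-fold, adjusted p = 4.35e-05). SNHG30 rose most, from 2.44, 2.35 and 2.4 FPKM to 6.42, 6.33 and 7.51 FPKM (2.73-fold, adjusted p = 6.71e-06). The groups of these 3 did not overlap, whereas DANCR, SNHG11 and SNHG17 overlapped between groups (adjusted p = 0.746, 0.429 and 0.228). SNHG21 passed at an adjusted p of 0.0478 with groups that overlapped, and lost the call under 8 alternatives.

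The peaks of a few of these host genes are given as examples, picked with their values in view. GAS5 had a single peak, in shCtrl alone, with a fold of 1.68. SNHG29 had folds of 15.9 (16463710 to 16464338 on chromosome 17) and 23 in overlapping peaks, and SNHG30 had 3.27 and 5.53 over the same 385 bp. SNHG7 RNA, up 1.76-fold (adjusted p = 9.16e-05), had a peak at 136721366 to 136721813 on chromosome 9 with a fold of 9.24 in shALKBH5 and none overlapping in shCtrl.

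**Figure D5:**
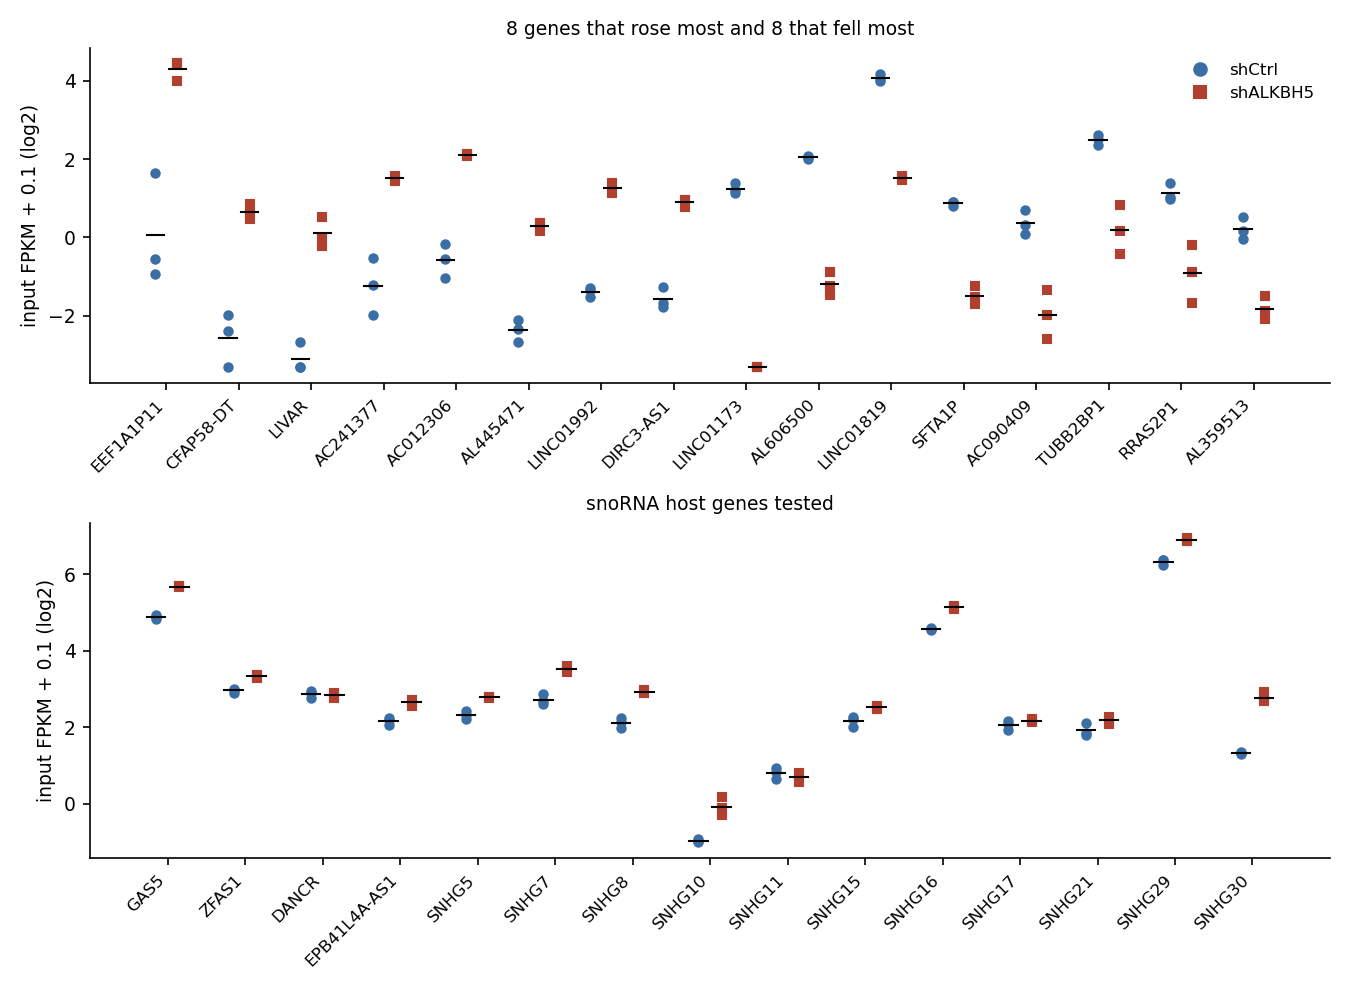
Input level, as log2 of FPKM plus 0.1, in each of the 3 shCtrl (circles) and 3 shALKBH5 (squares) libraries, with the mean of each group as a line; top, the 8 genes with noncoding RNA exon peaks that rose most and the 8 that fell most; bottom, the 15 snoRNA host genes tested. SNHG30 shows the widest gap of the lower panel, at 2.73-fold. In the upper panel the groups of all 16 genes are apart because the rule that chose them required it.

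Among 38 general long noncoding RNAs, 30 had a peak and 16 could be tested; 7 were higher and 5 lower, beside 34.7% and 26.2% over all genes. The 5 lower genes became 2 without shALKBH5 replicate 2 and 3 without shALKBH5 replicate 3, and 2 of 11 tested with a minimum of 1 FPKM. HOTAIRM1, a myeloid and HOXA cluster transcript, rose from 1.21, 1.33 and 1.22 FPKM to 3.24, 3.43 and 3.54 FPKM (2.6-fold, adjusted p = 9.18e-06 by limma). UCA1, first named in bladder cancer, fell from 1.46, 1.05 and 1.18 FPKM to 0.39, 0.461 and 0.349 FPKM (log2 difference -1.41, adjusted p = 0.000296). Both showed groups that did not overlap. MIR22HG rose 1.9-fold, NEAT1, NORAD, HCG11, HCG18 and THUMPD3-AS1 rose 1.41 to 1.59-fold, and OIP5-AS1, CYTOR, MIR4435-2HG and H19 fell, of which CYTOR lost its call in 7 alternatives. At the 3′ end of HOTAIRM1, overlapping peaks had folds of 13.1 in shALKBH5 and 6.34 in shCtrl, and at that of UCA1 14.7 and 7.08. KCNQ1OT1 and FTX were too low to be tested.

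Of 8 melanoma long noncoding RNAs, SAMMSON, BANCR, LINC00518, LINC01291 and SPRY4-AS1 had peaks. SAMMSON, which lies beside MITF and is known from melanoma, stood at 0.0147 to 0.0967 FPKM over the 6 libraries, too low to be tested, and had folds of up to 14.1 and 39.6. BANCR, a BRAF-induced RNA, stood at 1.85, 2.63 and 3.01 FPKM in shCtrl and at 1.9, 1.94 and 2.55 FPKM in shALKBH5 libraries, and its groups overlapped (adjusted p = 0.386). Its 1 peak per list had folds of 2.45 and 2.18, and neither passed an FDR of 0.01. SPRY4-AS1 did not pass the test either (adjusted p = 0.216). LINC01291 stood at 0.323, 0.415 and 0.37 FPKM in shCtrl and 0.612, 0.608 and 0.562 FPKM in shALKBH5 libraries, and LINC00518 at 0.0468, 0.2 and 0.218 and at 0.432, 0.3 and 0.588 FPKM. Both lay under the filter with groups that did not overlap, and with no filter LINC01291 was called higher and LINC00518 was not (adjusted p = 0.0365 and 0.084 by limma).

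Of the genes with such a peak, 526 passed the test with groups that did not overlap and at least 1 FPKM in the higher group, 423 of them higher and 103 lower. These were 36% and 8.77% of the 1174 tested, beside 32.2% and 24.7% of all genes by the same rule. EEF1A1P11, a pseudogene of a translation factor gene, rose most, from 0.428, 3.05 and 0.589 FPKM to 21.9, 16 and 21.7 FPKM (18.9-fold, adjusted p = 0.000685 by limma), with 1 shCtrl library well above the others. CFAP58-DT rose from 0.154, 0.0899 and 0 FPKM to 1.42, 1.29 and 1.72 FPKM, and its peak had a fold of 29.4 in shCtrl and 3.04 in shALKBH5. The other 6 were LIVAR, AC241377, AC012306 (ENSG00000286873, a neighbour of the gene of that clone name above), AL445471, LINC01992 and DIRC3-AS1, up 5.51- to 9.22-fold. Fold changes of low genes are understated on the scale of FPKM plus 0.1.

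LINC01819 was the most abundant of the 8 that fell most. It stood at 18.1, 16 and 16.5 FPKM in shCtrl and at 2.71, 2.67 and 2.88 FPKM in shALKBH5 libraries, a clear gap (a ratio of shALKBH5 to shCtrl of 0.168 on the scale of FPKM plus 0.1, adjusted p = 3.18e-07 by limma), and its longest peak had a fold of 11.1 in shCtrl and 4.22 in shALKBH5. AL606500 stood at 3.92, 4.16 and 4.04 FPKM in shCtrl and at 0.322, 0.439 and 0.264 FPKM in shALKBH5 libraries. LINC01173 stood at 2.51, 2.2 and 2.1 FPKM in shCtrl and was listed at 0 in all shALKBH5 libraries, yet its only peak was in the shALKBH5 list (fold 7.35, log10 FDR -0.585, over 22024 bp). The others, SFTA1P, AC090409, TUBB2BP1, RRAS2P1 and AL359513, had ratios of shALKBH5 to shCtrl of 0.195 to 0.243 on the same scale of FPKM plus 0.1.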

How the data were processed

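Input RNA and m6A IP libraries of A375 cells, 3 of each kind per group, were grouped by their titles. The authors deposited input expression as FPKM per library, and a list of peaks for each group, with IP over input as a fold (a ratio). The authors' log10 p and FDR of each peak were treated as a score. Aligner, counter and peak caller are not given in the sources used here, and depth was not derived, so no counting interval is given for expression. The labels name the mouse build mm10, but of 21699 genes matched by symbol to RefSeq GRCh38.p14, 99.9% overlapped the same human gene and 66.3% shared its start or end. The authors' columns of fold changes and p-values, in the expression and differential peak tables, were not used. IP values per library were not analysed here.

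Expression was tested with limma 3.58.1 in R 4.3.3 (lmFit and eBayes with a trend, two-sided, Benjamini-Hochberg) on log2(FPKM + 0.1) where the mean reached 0.5 FPKM, and checked on simulated data. The package the study names models counts and was not applied to FPKM. Shares have 95% Wilson intervals, for counting error only. Pairs of peaks were each other's best overlap. Peak starts were changed to count from 1. Each list returns to the first chromosomes near its end, with 278 and 269 noncoding RNA exon peaks there, of which 56.1% and 56.9% overlap an earlier peak (NEAT1 among them). They were kept.

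Members, gene lists and named genes were chosen with earlier results of these data known. Named were ALKBH5, the listed genes with a peak, the 10 genes with most peaks (11 with ties), the 10 largest folds, the 8 genes that rose and fell most, and the 6 largest changes of enrichment each way. Printed sequences, single peaks of listed genes, LINC00707 and opposite-strand examples were picked after their values were seen. Alternatives were other pseudocounts (1 and 0.01), no filter or 1 FPKM, rescaling by median ratio, a replicate block, no trend, leaving out each library, stricter or shorter peaks, and a reciprocal overlap of 50%. Tables were handled with pandas 2.3.3 and numpy 2.4.6 in Python 3.11.15, with scipy 1.17.1 for tests and matplotlib 3.10.9 for plots.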

Additional observations from a re-analysis of the deposited data

How the results depend on the processing

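The call on ALKBH5 held in all alternatives run. The replicate block left 501 genes with noncoding RNA exon peaks higher and 115 lower, and an ALKBH5 log2 difference of -2.36; same-numbered libraries did not deviate together (r = 0.0181, -0.0462 and 0.0591), and the block took the lower genes among the general long noncoding RNAs from 5 to 3. Leaving out 1 library gave 447 to 512 genes higher and 99 to 116 lower. Rescaling gave 483 and 142, and shifted the median of all genes from 0.09 to 0.02. It left 11 of 15 snoRNA host genes higher. Without pseudogenes 67 of 770 genes tested were lower (8.7%) and 398 higher (51.7%), an alternative added after the data were seen.

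Shares of peaks moved to 17.9% (shALKBH5) and 16.7% (shCtrl) for peaks of 2-fold or more with an FDR up to 0.01, to 19.8% and 18.6% with spans of up to 2 kb, and to 17.3% and 16.1% without peaks covered on the opposite strand (added later). The overlap moved to 41.9% and 46.1% (reciprocal 50%), 73.8% and 81.7% (fold and FDR) and 66.9% and 73.8% (without covered peaks). Median folds moved to 7.7 (shALKBH5, FDR of at most 0.01), and to 8.57 and 8.94 over the largest peak per gene. With 1 row per gene, 15% of differential rows were in noncoding RNA exons. The cause of these moves was not tested. Among named genes, MALAT1 turned to -0.02 after rescaling, and to -0.05 and -0.10 without shALKBH5 replicate 1 or shCtrl replicate 3, in a range of -0.10 to 0.22 over the libraries left out. FGD5-AS1 turned to -0.01 without shCtrl replicate 1 (-0.01 to 0.15), and DANCR to 0.01 without shALKBH5 replicate 3 or shCtrl replicate 1 (-0.07 to 0.01), none of them called. CYTOR, SNHG21, THUMPD3-AS1, OIP5-AS1 and MIR4435-2HG lost their call in 7, 8, 4, 2 and 2 alternatives, and MIR100HG gained one in 2. The search for GGACT in peak bodies was not run, since no genome sequence was used here.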

Other observations

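Antisense genes and their partners could be compared at the RNA level. Of 123 antisense genes with a peak whose partner by name was also tested, 81 passed the test and 75 partners did, beside 61% of all genes tested. In 50 pairs both passed, 32 in the same direction and 18 in opposite directions. No such split was derived for other pairs of genes, so it is a description only. Examples picked with their values in view are URB1-AS1 (a log2 difference of 1.37 against -0.92 at URB1) and AGAP2-AS1 (0.48 against -1.62 at AGAP2). CDK6-AS1 and CDK6, a cell cycle kinase gene, both fell (-0.86 and -1.84), as did SLCO4A1-AS1 and SLCO4A1 (-1.70 and -1.58).

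Some peaks stood in 1 list only. In shALKBH5, LINC01635 had a fold of 13.5 and DUXAP10, a pseudogene transcript, 34.3 with no overlapping shCtrl peak. In shCtrl, AL138689 had a fold of 7.3 and RPL13AP25, a ribosomal protein pseudogene, 3.69 with none in shALKBH5. Of the genes with a peak and an FPKM value, 175 of 4199 in shALKBH5 and 216 of 3861 in shCtrl were listed at 0 FPKM in all 3 input libraries of the same group. These peaks have no replicate check.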
